A study of Mus musculus with 4 samples.

Results

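The 9 genes described here are Gad1, Gad2 and Slc32a1, which make gamma-aminobutyric acid (GABA) and load it into vesicles, the neuropeptide genes Sst, Npy and Vip, and the genes of the calcium-binding proteins Calb1, Calb2 and Pvalb. They were read from all array features, other than controls, whose RefSeq accession belonged to one of these genes. All 9 genes had 1 accession each on the array, with 11 features among 55681 different features that are not controls, and the array held 20660 genes named through an accession. Slc32a1 and Pvalb had 2 features each, and the Sst feature was spotted 10 times.

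Brain mRNA of mouse offspring was measured on postnatal day 1 after their dams had received, by intratracheal spray, 25 µL of either vehicle (Sham) or a suspension of titanium dioxide nanoparticles (TiO2-H). The dose was 100 µg per mouse in the study's methods, while the sample labels write a suspension of 4 ug/L, with which it does not match. Exposure was on gestational day 10.5 by the protocol, and the sample descriptions state day 14. Dams were C57BL/6J, and the tissue was whole brain, so that a signal averages over all regions and cell types. The 4 groups, a male and a female one for Sham and likewise for TiO2-H, were each 1 RNA pool on 1 array. A pool held 2 pups per dam, from 5 dams for Sham and 6 for TiO2-H. There was no replicate within a sex, and only both TiO2-H arrays against both Sham arrays could be tested. Both Sham arrays lay in one row of the slide and both TiO2-H arrays in the other, so that exposure and row cannot be told apart.

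The sex labels of the TiO2-H arrays went against sex-linked transcripts. Xist, the RNA that coats the inactive X chromosome, had processed signals of 17.9 on Sham male and 276 on Sham female, but 347 on the array labelled TiO2-H male and 5.36 on the array labelled TiO2-H female. Eif2s3y, a Y-linked gene, gave 3519 on Sham male, 419 on Sham female, 6.40 on the array labelled TiO2-H male and 4345 on the array labelled TiO2-H female. Ddx3y, also Y-linked, had the same order, with 1418, 142, 7.18 and 1783, and both Y-linked genes were well above background on Sham female too. Values within a sex label are therefore followed by those with the TiO2-H arrays crossed, and the test of both TiO2-H against both Sham arrays does not use the sex labels.

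GABA is the main inhibitory transmitter of the mature brain. Glutamate decarboxylase, in 2 forms encoded by Gad1 and Gad2, makes it from glutamate, and the carrier encoded by Slc32a1 packs it into synaptic vesicles. Most GABA neurons of the cortex are born in the ventral telencephalon and migrate from there. In the cortex somatostatin, neuropeptide Y, vasoactive intestinal peptide, calbindin, calretinin and parvalbumin mark overlapping subtypes. Parvalbumin is known to appear in the cortex only after the first postnatal days, and several of these genes are also used outside interneurons, calbindin in Purkinje cells among them.

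The start regions of the peptide genes Sst and Vip are shown because both hold the core of the cyclic AMP response element, the short DNA word through which both genes are known to be switched on by neuronal activity. The RefSeq promoter table (GRCm38.p6) had entries for 7 of the 9 genes, and Calb1 and Calb2 were not matched there. Each window runs from 250 bases before to 50 bases after the start, and capitals mark TGACGTC or TATAAA on either strand. Sst lies on the minus strand at chr16:23890795-23891094 and Vip on the plus strand at chr10:5638968-5639267.
Sst: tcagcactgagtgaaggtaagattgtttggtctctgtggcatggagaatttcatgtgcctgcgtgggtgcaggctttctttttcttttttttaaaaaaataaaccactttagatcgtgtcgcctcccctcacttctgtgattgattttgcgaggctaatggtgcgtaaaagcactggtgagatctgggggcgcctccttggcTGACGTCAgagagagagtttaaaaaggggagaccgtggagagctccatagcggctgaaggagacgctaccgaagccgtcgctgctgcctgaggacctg
Vip: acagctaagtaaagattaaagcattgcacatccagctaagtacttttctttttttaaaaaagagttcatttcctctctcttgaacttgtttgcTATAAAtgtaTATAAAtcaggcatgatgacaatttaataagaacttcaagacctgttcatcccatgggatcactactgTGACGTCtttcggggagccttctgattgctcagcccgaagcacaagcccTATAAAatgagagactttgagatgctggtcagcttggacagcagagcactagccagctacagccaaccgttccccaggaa
In Sst the word starts 48 bases before the start site and is the palindrome TGACGTCA, so that it matches on both strands at overlapping positions. In Vip it starts 79 bases before the start. The word is found in 3.21% of 32851 promoter windows of this length, and in 2 of the 7 genes with a window. TATAAA, found in 13.6% of all windows, occurred in Vip at 3 places and in Gad1 at 1. These matches describe the sequence, and no binding was measured.

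All 11 features were well above background on all 4 arrays, and none of the spots was marked as an outlier. No gene of the 9 passed an adjusted p of 0.05 in the comparison of both TiO2-H with both Sham arrays, by limma with Benjamini-Hochberg adjustment over 19485 accessions (0.0% called), and 0 of the 9 had an unadjusted limma p under 0.05, against 16.6% of all accessions. Slc32a1 and Calb1 crossed an unadjusted p of 0.05 under some other settings, and neither passed the adjusted p there. None of the 9 reached 1.5-fold or 0.67-fold between arrays of the same sex label, where 5.14% of accessions did so for the male label and 4.26% for the female label. Nor did any of the 9 with the TiO2-H arrays crossed, where 4.75% of accessions did so over Sham male and 4.49% over Sham female. These shares include accessions well above background on only 1 array of the pair. With both arrays of a label well above background, 385 accessions passed for the male label and 374 for the female label, against 958 and 806. The median absolute log2 difference was 0.0185 over the 9 genes and 0.0927 over all accessions. Of those 19485 accessions, 17160 were well above background on all 4 arrays. All 9 genes were, so the medians of the genes and of all accessions rest on unlike sets. The 95% interval of the difference lay within 1.5-fold and 0.67-fold for 8 of the 9 genes, all but Vip, and for 89.5% of the accessions well above background on all 4 arrays. Here and below, a level is the log2 of the processed signal after division by the array's 75th percentile, and a difference is that of 2 levels, TiO2-H minus Sham.

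**Figure D1:**
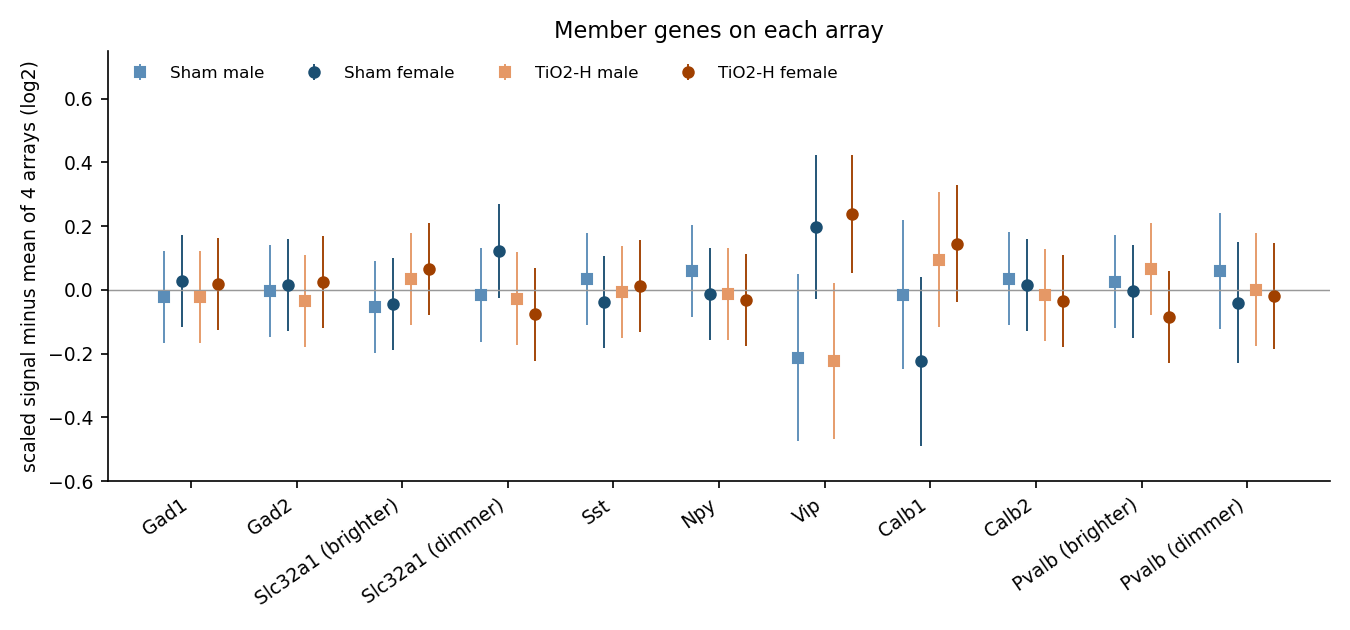
Scaled log2 signal of each feature on each of the 4 arrays, minus the mean of the feature over the arrays (vertical axis, log2). Squares are arrays labelled male, circles arrays labelled female, blue is Sham and orange TiO2-H, and bars are the signal error given by the scanner software. The range over the 4 arrays is at most 0.15 of a log2 unit for 8 features, 0.20 for the dimmer Slc32a1 feature, 0.37 for Calb1 and 0.46 for Vip.

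Gad1, the decarboxylase of the cell body that makes most of the brain's GABA, had processed signals of 6231 on Sham male, 6308 on Sham female, 6665 on the array labelled TiO2-H male and 6854 on the array labelled TiO2-H female. After scaling, the levels were 2.94, 2.99, 2.94 and 2.98 in the same order. Both arrays labelled female were slightly above both labelled male, and the exposures overlapped. The difference between exposures was -0.01 (SE 0.0416, limma adjusted p = 0.946), with a 95% interval of 0.913-fold to 1.09-fold.

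Gad2, the form bound to synaptic vesicles, gave signals of 4852, 4822, 5073 and 5328 on Sham male, Sham female, the array labelled TiO2-H male and the array labelled TiO2-H female. The scaled levels were 2.58, 2.60, 2.55 and 2.61, so that the lowest and the highest were both TiO2-H arrays. The difference was -0.01 (SE 0.0440, limma adjusted p = 0.910), with an interval of 0.906-fold to 1.09-fold.

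Slc32a1, the vesicular GABA carrier, was read by 2 features that moved in opposite directions. The brighter gave 31687 and 31276 on Sham male and female and 36072 and 36984 on the arrays labelled TiO2-H male and female, with scaled levels of 5.29, 5.30, 5.38 and 5.41. Both TiO2-H arrays were above both Sham arrays there. The difference was 0.10 (SE 0.0375), a 1.07-fold change with an interval of 0.992-fold to 1.16-fold (limma adjusted p = 0.321). The dimmer feature gave 374, 406, 398 and 387, with levels of -1.11, -0.97, -1.12 and -1.17, and both TiO2-H arrays were below both Sham arrays. Its difference was -0.10 (SE 0.0692, limma adjusted p = 0.476 over all features), and the mean of both features differed by -0.00 between exposures.

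Among the peptide genes, Sst, which encodes somatostatin, allows the precision of a spot to be read directly, since its feature was printed 10 times. The mean signals were 16238 on Sham male, 15124 on Sham female, 16804 on the array labelled TiO2-H male and 17126 on the array labelled TiO2-H female. The scaled levels were 4.32, 4.25, 4.28 and 4.30, with an SD over the 10 spots of 0.052, 0.051, 0.052 and 0.030. Both TiO2-H arrays lay between the Sham arrays. Sham female was below Sham male at 10 of the 10 spot positions, by 0.075 on the log2 scale on average, while both TiO2-H arrays were below Sham male at 8 of 10 positions and the array labelled TiO2-H male was above Sham female at 7 of 10. The difference between exposures was 0.00 (SE 0.0466, limma adjusted p = 1.0), with an interval of 0.908-fold to 1.1-fold. The spots of an array share 1 pool of RNA and are no replicates of an exposure.

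**Figure D2:**
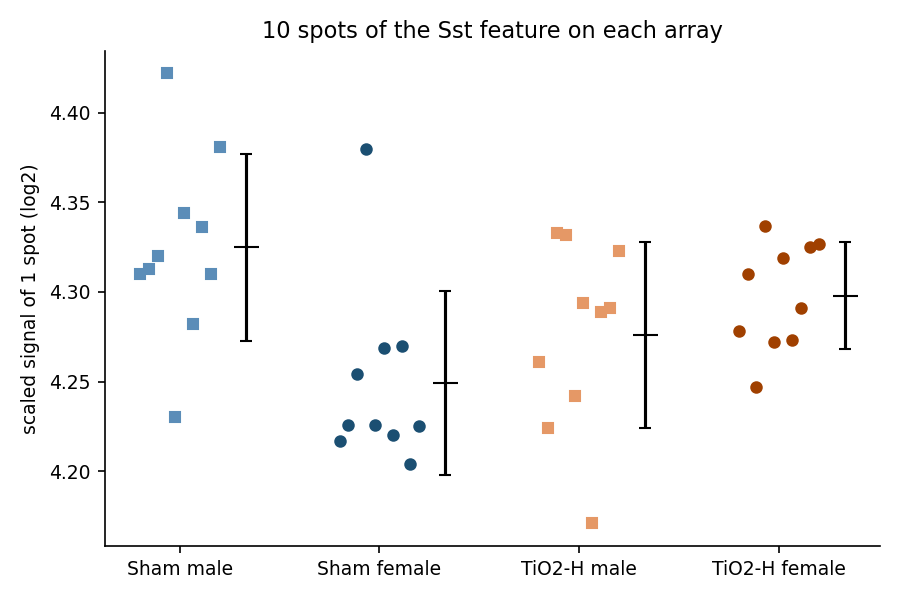
Scaled log2 signal of the 10 spots of the Sst feature (vertical axis, log2) on each array, with black bars for the mean and SD over the spots. The Sham arrays have the highest and the lowest mean, 4.32 and 4.25, and both TiO2-H means, 4.28 and 4.30, lie between them.

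Npy, which encodes neuropeptide Y, gave signals of 8278, 7717, 8422 and 8341 on Sham male, Sham female, the array labelled TiO2-H male and the array labelled TiO2-H female. The scaled levels were 3.35, 3.28, 3.28 and 3.26. Sham male was the highest and the other 3 lay within 0.02 of each other, less than the median SD of 0.052 to 0.056 among repeated spots of a signal between 1000 and 10000. The difference between exposures was -0.05 (SE 0.0461, limma adjusted p = 0.622), with an interval of 0.880-fold to 1.07-fold.

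Vip, which encodes vasoactive intestinal peptide, was close to the limit of detection. Its signals were 41.4 on Sham male, 54.1 on Sham female, 43.9 on the array labelled TiO2-H male and 60.8 on the array labelled TiO2-H female, between 1.36 and 2.61 times the lowest signal well above background on the same array. The scaled levels, -4.29, -3.88, -4.30 and -3.84, fell in pairs by sex label and not by exposure. Sham female was 0.41 above Sham male, and the array labelled TiO2-H female 0.46 above the array labelled TiO2-H male. Repeated spots of such dim features had a median SD of 0.157 to 0.177 on the log2 scale, and Vip had 1 spot per array. Since the sex-linked transcripts went against the TiO2-H labels, the pairing of Vip by label is not a pairing by the sex those transcripts show. Between exposures Vip differed by 0.01 (SE 0.242, limma adjusted p = 0.981), and the interval of 0.611-fold to 1.67-fold leaves room for a change past 1.5-fold either way. Within a label the change was 0.992-fold (male) and 1.03-fold (female), and with the TiO2-H arrays crossed it was 1.37-fold over Sham male and 0.745-fold over Sham female.

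Among the calcium-binding proteins, Calb1, which encodes calbindin, had the largest difference of the 9 genes. Its signals were 57.2 on Sham male, 48.8 on Sham female, 66.1 on the array labelled TiO2-H male and 69.0 on the array labelled TiO2-H female. Like Vip, it was close to the limit of detection, at 1.54 to 2.96 times the lowest signal well above background on the same array. It had 1 spot per array, and repeated spots of such dim features had a median SD of 0.157 to 0.177. The scaled levels were -3.82, -4.03, -3.71 and -3.66, with both TiO2-H arrays above both Sham arrays. The difference was 0.24 (SE 0.0882), a 1.18-fold change with an interval of 0.983-fold to 1.42-fold, and did not pass the test (limma adjusted p = 0.318). Of all accessions, 83.9% had a smaller absolute difference. By label the change was 1.08-fold (male) and 1.29-fold (female), and crossed it was 1.12-fold over Sham male and 1.24-fold over Sham female. The direction turned to -0.09 when the background was corrected by normexp on the median signals, and Sham female was itself 0.20 below Sham male.

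Calb2, which encodes calretinin, gave signals of 669, 645, 692 and 685 on Sham male, Sham female, the array labelled TiO2-H male and the array labelled TiO2-H female. The scaled levels were -0.28, -0.30, -0.33 and -0.35, so that both TiO2-H arrays were below both Sham arrays, by an amount under the median SD of repeated spots of this brightness (0.080 to 0.082). The difference was -0.05 (SE 0.0376, limma adjusted p = 0.546), with an interval of 0.895-fold to 1.05-fold.

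Pvalb, which encodes parvalbumin, was detected by both of its features in these newborn brains. The brighter gave 696 on Sham male, 669 on Sham female, 766 on the array labelled TiO2-H male and 694 on the array labelled TiO2-H female, with levels of -0.22, -0.25, -0.18 and -0.33. Both the highest and the lowest level were TiO2-H arrays. The dimmer feature gave 79.5, 72.6, 81.4 and 80.6, with levels of -3.35, -3.45, -3.41 and -3.43, and there both the highest and the lowest were Sham arrays. Both features differed by -0.02 between exposures (SE 0.0678 with limma adjusted p = 0.894 for the brighter, SE 0.0544 with 0.844 over all features for the dimmer). The interval of the brighter feature was 0.858-fold to 1.14-fold.

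**Figure D3:**
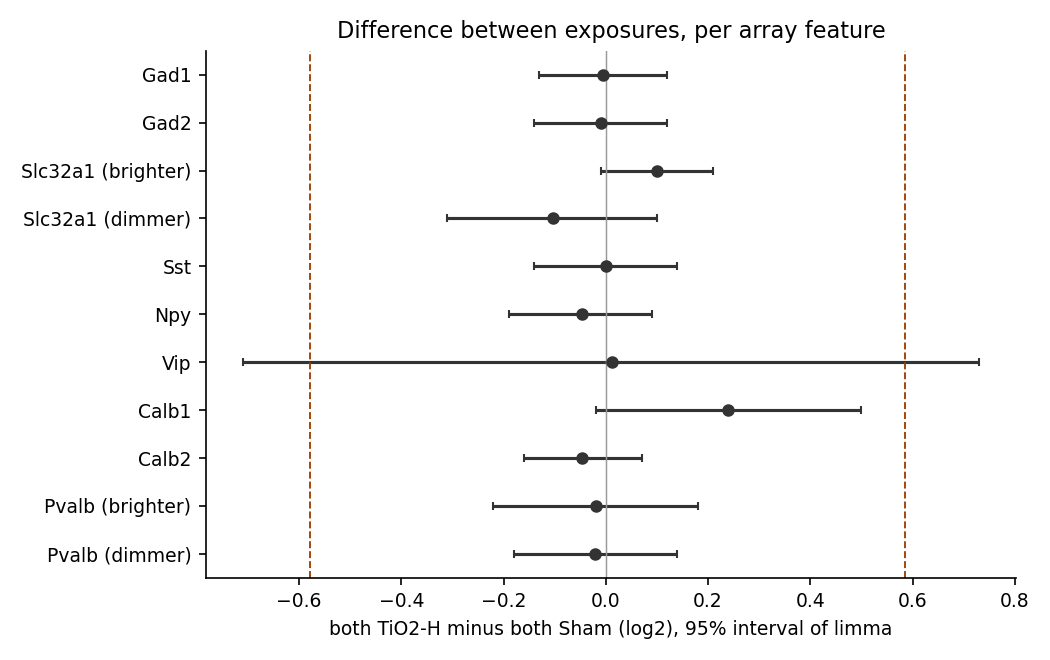
Difference of both TiO2-H minus both Sham arrays (horizontal axis, log2) for each of the 11 features, with the 95% interval of limma as bars and dashed lines at 1.5-fold and 0.67-fold. The interval of Vip, from -0.71 to 0.73, crosses both dashed lines, and the other 10 stay within them.

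Taking the brightest feature of each gene, 3 of the 9 genes had arrays that did not overlap between exposures, Slc32a1 and Calb1 with TiO2-H above and Calb2 with TiO2-H below. Over all accessions 55.3% did not overlap, 28.9% with TiO2-H above and 26.3% below. With 2 arrays against 2 the smallest p of a two-sided exact permutation test is 0.333. Differences between exposures were wider over the array as a whole than those within an exposure. Over 17160 accessions well above background on all 4 arrays, the robust SD of the log2 ratio was 0.139 (male label) and 0.141 (female label). With the TiO2-H arrays crossed this SD was 0.149 over Sham male and 0.135 over Sham female. It was 0.0921 between both Sham arrays and 0.0853 between both TiO2-H arrays. Exposure and slide row cannot be told apart in these values.

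**Figure D4:**
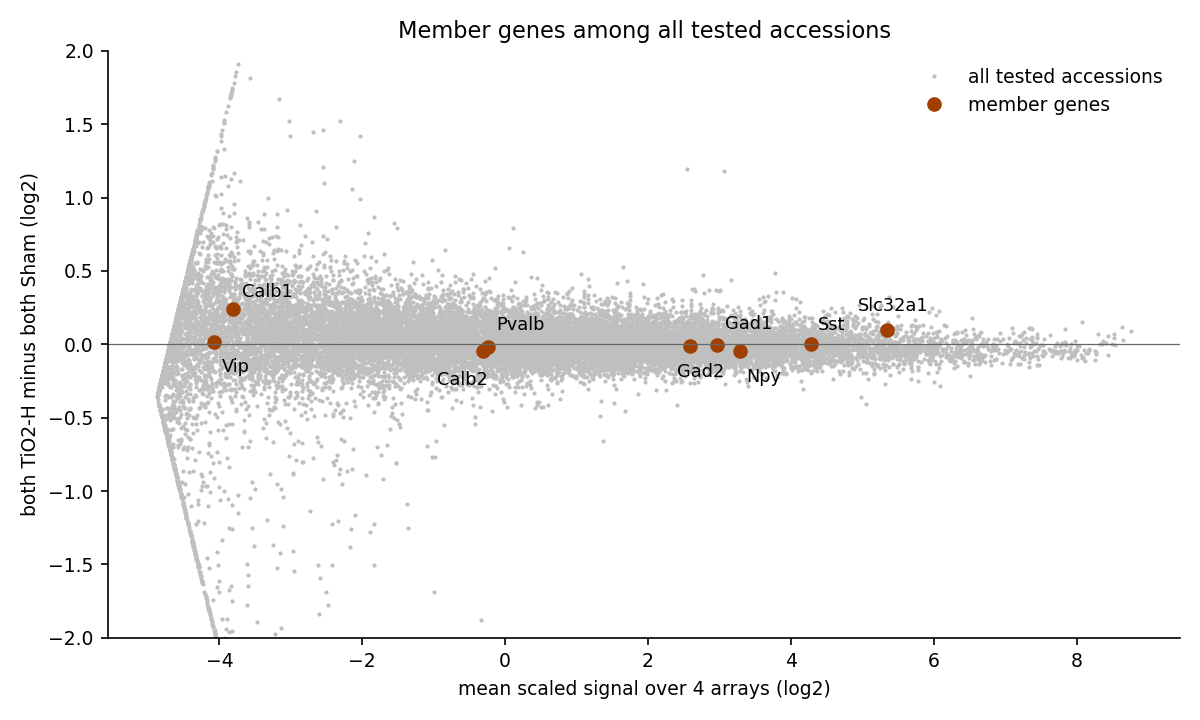
Difference of both TiO2-H minus both Sham arrays (vertical axis, log2) against the mean scaled log2 signal over the 4 arrays (horizontal axis), for 19485 accessions (grey) and the 9 genes (orange). Accessions with an absolute difference above 2, 75 in number, lie outside the axis. The 9 genes lie along 0 over the whole range of signals, apart from Slc32a1 at 0.10 and Calb1 at 0.24.

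Genes around these 9 in the same pathways and cell lineages were followed in 7 lists, with 70 of 73 genes tested. None of the 70 passed an adjusted p of 0.05 (lowest 0.278, limma), and 5 had an unadjusted p under 0.05, that is 7.14% against 16.6% of all accessions. The arrays did not overlap between exposures for 64.3% of them, 30 genes (42.9%) with TiO2-H above and 15 (21.4%) below, beside 55.3%, 28.9% and 26.3% of all accessions, and the median difference of the 70 was 0.03 beside 0.01 over all accessions. The other 3, Npy4r, Erbb4 and Elfn1, were well above background on none of the arrays.

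The 6 genes of GABA uptake and breakdown had a median difference of 0.03, from -0.11 for Aldh5a1, which removes succinic semialdehyde, to 0.19 for the betaine and GABA carrier Slc6a12 (SE 0.0699, limma adjusted p = 0.322). The transaminase Abat, which starts GABA breakdown, differed by -0.03. The metabotropic GABA-B receptor subunits Gabbr1 and Gabbr2 differed by -0.06 and -0.01. Among 11 receptors of the 3 peptides the median was -0.02. The somatostatin receptor Sstr3 had the largest difference there, with signals of 476 and 491 on Sham male and female and 586 and 605 on the arrays labelled TiO2-H male and female, a difference of 0.19 (SE 0.0480, limma adjusted p = 0.278). The other somatostatin receptors differed by 0.10 (Sstr1), -0.17 (Sstr2), -0.15 (Sstr4) and 0.03 (Sstr5), and none of them passed the test.

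The 23 transcription factors of GABA progenitors and their lineages had a median of 0.03, with 11 above, 5 below and 7 overlapping, where 28.9% of all accessions were above and 26.3% below. Dlx1 and Dlx2, which direct the fate and migration of GABA neurons, differed by -0.07 and -0.05, and Lhx6, which specifies Sst and Pvalb neurons, by 0.03. Sox6, which acts after Lhx6, had the largest difference of the list at 0.24 (SE 0.136, limma adjusted p = 0.426), from signals of 95.5 on Sham male, 118 on Sham female, 139 on the array labelled TiO2-H male and 133 on the array labelled TiO2-H female. The lowest of these was Sham male alone, so that the difference was 0.44 in the male label and 0.04 in the female label, and crossed 0.37 over Sham male and 0.11 over Sham female.

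Of 13 other interneuron subtype genes 8 were above, 1 below and 4 overlapping, with a median of 0.07. Over all accessions 28.9% were above and 26.3% below. Ndnf, a marker of neurogliaform cells, had signals of 155, 171, 199 and 236 on Sham male, Sham female, the array labelled TiO2-H male and the array labelled TiO2-H female and differed by 0.30 (SE 0.120, limma adjusted p = 0.335). Reln, made by the earliest cortical neurons and later by interneurons, differed by 0.02, and Cck by 0.06. GABA neurons outside the cortex were covered by 9 genes of striatal projection neurons (median -0.04) and 6 of Purkinje cells (median 0.02). Pdyn, which encodes dynorphin, was the 1 gene of the 70 past the threshold of 1.5-fold or 0.67-fold within a label, with signals of 39.6, 55.6, 38.1 and 33.6 and differences of -0.15 in the male and -0.86 in the female label. Crossed they were -0.34 over Sham male and -0.67 over Sham female, and between exposures Pdyn differed by -0.51 (SE 0.215, limma adjusted p = 0.349). Its highest array was Sham female, and all 4 signals were close to background. Foxp2 of the Purkinje list differed by 0.20 (SE 0.0451, limma adjusted p = 0.278).

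**Figure D5:**
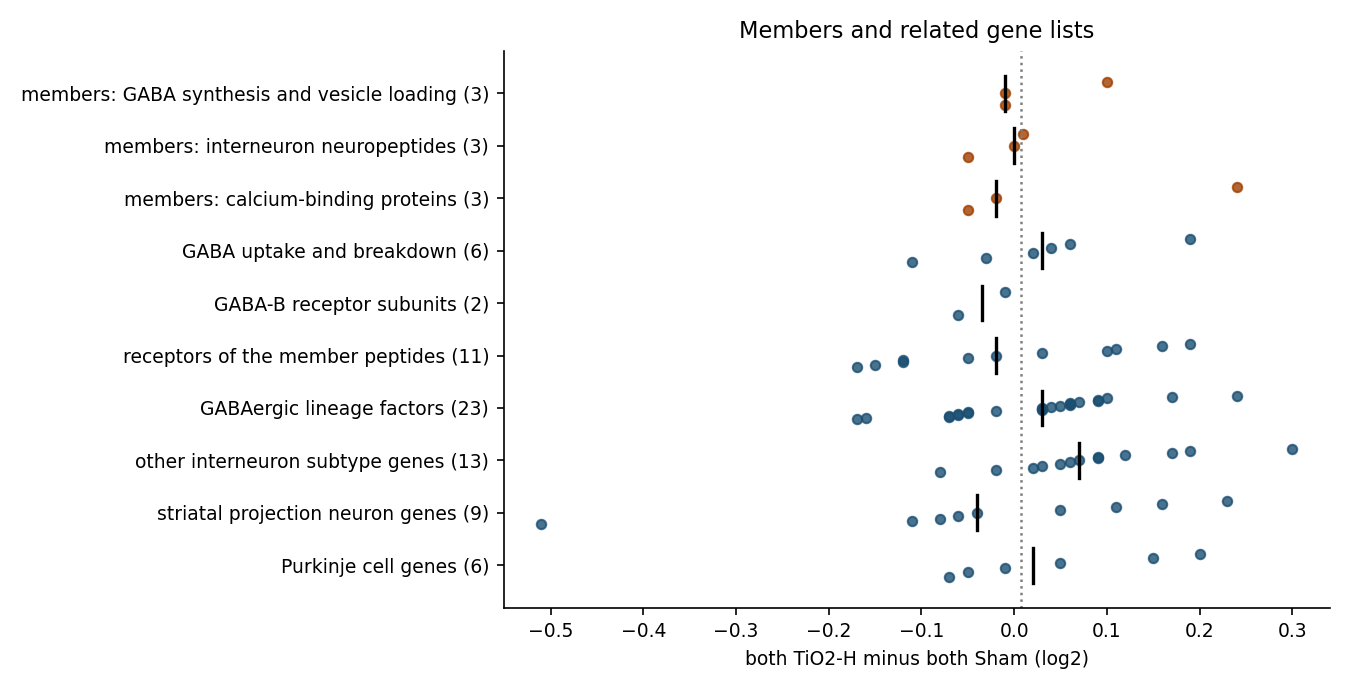
Difference of both TiO2-H minus both Sham arrays (horizontal axis, log2) for each tested gene of the members (orange) and of 7 related lists (blue), with the number of genes in brackets, a black bar at each list's median and a dotted line at the median of all accessions, 0.01. List medians lie between -0.04 and 0.07, and the point farthest to the left is Pdyn at -0.51.

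Markers of other cell types were read beside these values, because a change in cell numbers and a change in RNA per cell cannot be told apart in whole brain. None of the tested markers passed an adjusted p of 0.05. An unadjusted limma p under 0.05 was found for 3 of 7 pan-neuronal, 3 of 6 oligodendrocyte, 3 of 6 microglia and 2 of 5 endothelium markers. It was found for 1 of 6 glutamatergic and 1 of 3 erythroid markers, and for 0 of astrocytes, choroid plexus and pituitary. Over all accessions the share was 16.6%, and the median difference was 0.01. The median difference was 0.06 for 6 markers of glutamatergic neurons, 0.12 for 7 pan-neuronal markers, 0.02 for 6 of astrocytes and radial glia, 0.12 for 6 of oligodendrocyte lineage, 0.11 for 6 of microglia, 0.12 for 5 of endothelium and -0.06 for 5 of choroid plexus. The largest single differences of these lists, apart from the oligodendrocyte list, were Neurod6 (0.13), Snap25 (0.19), Fabp7 (0.18), P2ry12 (0.36), Flt1 (0.31) and Kcnj13 (-0.08). The erythroid genes Hba-a1 and Alas2 differed by -0.25 and -0.17, and Hbb-y was well above background on 1 array only. The pituitary gene Gh was well above background only on the array labelled TiO2-H male, with a signal of 301 against 11.2, 6.44 and 4.76 on Sham male, Sham female and the array labelled TiO2-H female, and Pomc was also highest there, with 956 against 572.1, 570.5 and 590.3. Between both TiO2-H arrays the 9 genes differed by at most 0.46 on the log2 scale, for Vip. The part of these markers in the values of the 9 genes was not tested.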

How the data were processed

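Each of 4 pools of total RNA from mouse whole brain was hybridized to a one-color Agilent array. The authors deposited the scanner output and a value table as intensity, made with Feature Extraction (version 10.10.1.1), which subtracts background and does not scale between arrays. The table held the same intensity, within a relative 1e-05, at all 59305 spots that are not controls. Signals were divided by each array's 75th percentile (795.3 to 870.7) and put on the log2 scale, outlier spots were left out, and spots of a feature were averaged. An accession was represented by its brightest feature and tested where that was well above background on at least 1 array. On an array where it was not, the lowest signal well above background (23.3 to 31.7) was the floor. Between 56.2% and 61.2% of spots were well above background and 0 were saturated. Both TiO2-H arrays were tested against both Sham arrays by limma (version 3.58.1, R version 4.3.3, Benjamini-Hochberg adjustment), a step tested on simulated data. Within a sex label 1.5-fold and 0.67-fold served as thresholds with no test. By the study's methods this experiment had 5 Sham and 6 TiO2-H dams, and each pool drew on that many. The male and female pools of an exposure thus came from the same dams and are not independent. The p-values measure the spread between these arrays only. The number of arrays limits the precision. Accessions were named through RefSeq (GRCm38.p6). The array header names build mm9, so no positions of features are given.

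Related genes were named where they passed the fold within a sex label with both arrays well above background, at most 4 per list, together with the gene of the largest difference in each list. Some genes are not reported here. A few further genes were named for their roles after their values were seen. The members and lists were chosen with earlier results of these data known. The settings varied were no scaling, quantile normalization, normexp (offset 50) on the median signals because no mean signal column was used here, the value table, other filters, floor left off, features of an accession averaged, outlier spots kept, sex terms, stricter thresholds, TiO2-H arrays crossed between sex labels, and leaving out single arrays.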

Additional observations from a re-analysis of the deposited data

Results flagged for a closer look

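The values below had opposite signs in the arrays labelled male and female, and the difference between the labels was not tested, since each rests on 1 array per group. The sex-linked transcripts go against the TiO2-H labels, so each is given also with the TiO2-H arrays crossed, over Sham male and then over Sham female. Gad2 differed by -0.03 in the male and 0.01 in the female label, 0.05 apart on the log2 scale, and crossed by 0.03 and -0.05. Sst differed by -0.05 and 0.05, 0.10 apart, and crossed by -0.03 and 0.03. Vip differed by -0.01 and 0.04, 0.05 apart, and crossed by 0.45 and -0.43. Pvalb differed by 0.04 and -0.08, female minus male -0.12, and crossed by -0.11 and 0.07. The pituitary marker Pomc differed by 0.64 and -0.08, female minus male -0.72, and crossed by -0.06 and 0.62.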

How the results depend on the processing

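No member gene passed an adjusted limma p of 0.05 under any of 15 alternatives (lowest 0.110), and of 65 recomputed differences that moved at all (value table not counted again) 47 kept their direction. A kept direction says little where the main difference was well under its SE, as for Gad1, Gad2, Sst, Vip and Pvalb. Without scaling, which equals the value table, the median of all accessions was 0.12. Gad1 (0.11), Gad2 (0.10), Npy (0.0685), Calb2 (0.0676) and Pvalb (0.10) then turned to higher in TiO2-H. Relative to that median 3 of 9 genes were above it, as with scaling. There 7 of 9 genes and 12966 of 19485 accessions did not overlap between exposures, 2 of 9 (Slc32a1 and Calb1) and 5801 accessions had an unadjusted p under 0.05, and 1 accession, of Ttpa, passed the adjusted p. With normexp Gad1 was 0.0013, Gad2 0.0169 and Calb1 -0.0939. With quantile normalization Vip was -0.0591, and with the mean of both features Slc32a1 was -0.0022. Each array left out in turn gave -0.0285 to 0.0165 for Gad1, -0.0428 to 0.0224 for Gad2, -0.0377 to 0.0378 for Sst, -0.0830 (without Sham female) to -0.0088 (without Sham male) for Npy, -0.22 (without TiO2-H female) to 0.24 for Vip, -0.0921 to 0.0551 for Pvalb and 0.14 to 0.34 for Calb1, with 0 to 1 of 9 genes (Calb1 without Sham male) and 1961 to 2338 accessions at an unadjusted p under 0.05. 1 of 9 genes had such a p with quantile normalization and with normexp (Slc32a1 in both). Where every array had to be well above background, 1 of 9 genes (Calb1) had it. Of all accessions tested, 3331 of 19485 had such a p with quantile normalization and 3791 of 19469 with normexp. With every array well above background, 3457 of 17160 accessions had it.

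No paired analysis was possible because no replicate numbers link pools of different exposures. With the sex label as a term, a block on sex and not on a replicate, Vip differed by the same 0.01 with an SE of 0.0450 (limma adjusted p = 0.892). That fit gave 2228 accessions with an unadjusted p under 0.05, and the fit with sex crossed within TiO2-H gave 2126. The accessions past 1.5-fold or 0.67-fold, 958 in the male and 806 in the female label, were 589 and 506 with normexp, 385 and 374 with both arrays of a label well above background, and 461 and 406 at 2-fold or 0.5-fold, with 0 of 9 genes among them each time. Without a filter 17413 of 26194 accessions did not overlap between exposures. An undetected signal under the floor took the floor of its own array. The scaled floors were -4.74 and -4.65 on Sham male and female, and -4.88 and -5.22 on the arrays labelled TiO2-H male and female. An accession at the floor on all 4 arrays therefore counted as TiO2-H below by the setting alone. Vip and Calb1 lay close to background, which limits their values. The cause of the other changes between settings was not tested.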
